A study of Mus musculus with 4 samples.

Results

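The genes described here are 10 hosts of small nucleolar RNAs (snoRNAs), measured in hepatocytes, the metabolic cells that make up most of the liver. The members are the lncRNA genes Gas5, Zfas1, Snhg1, 2410006H16Rik, Snhg6, Snhg8, Epb41l4aos, Snhg12, Snhg5 and Dancr, and they were found by matching the Ensembl gene identifiers of the files to GENCODE symbols. All 10 had at least 1 row, 102 rows of 37363 in all and 10 genes of 19284. They were selected on the NEAA against control differences in FPKM of these same 4 samples. Their differences between the groups are therefore a description. The fitted standard errors, counts and limma calls given for them are not a test of any member. The study has 4 samples of cells labelled as mouse primary hepatocytes from liver, 2 labelled control and 2 labelled NEAA, the usual short form of non-essential amino acids. Strain, age, dose, medium and time are not given in the labels. No label says that the 2 samples of a group came from separate animals or cultures, so the spread between them may be technical. In bulk RNA, fewer cells that express a gene and less RNA per cell cannot be told apart.

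A snoRNA host is a long RNA whose introns carry snoRNAs, the small guides that direct chemical modification of ribosomal RNA. Box C/D snoRNAs guide methylation and box H/ACA snoRNAs guide the change of uridine to pseudouridine. After splicing, the snoRNA is trimmed out of the intron, and the spliced host is exported and often degraded in the cytoplasm. Many hosts begin with a 5'TOP, a terminal oligopyrimidine tract made of a C followed by further C or T bases, as the mRNAs of ribosomal proteins do. Translation of such RNAs depends on amino acid and growth signals through mTORC1 and the RNA-binding protein LARP1. Hosts with short or no reading frames, Gas5 being the classical case, are removed by nonsense-mediated decay while they are translated.

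The start of these genes is shown first, since the tract that names the class lies there. RefSeq promoters (GRCm38.p6) were matched by symbol for 8 of the 10 members, with 9 starts because Gas5 has 2. Snhg6 and Epb41l4aos had no entry. The windows below run from 45 bases before the annotated start to its 30th base, 5′ to 3′ on the gene's strand. Capitals near the start mark a run of at least 5 pyrimidines that begins with C within 10 bases of the start, and capitals upstream mark TATAAA or TATATA. The windows are chr1:161035121-161035195 (plus strand) for the downstream start of Gas5, chr3:123508307-123508381 (minus) for Snhg8, chr4:132308633-132308707 (plus) for Snhg12, chr9:88522868-88522942 (minus) for Snhg5 and chr11:62602832-62602906 (plus) for 2410006H16Rik.
Gas5: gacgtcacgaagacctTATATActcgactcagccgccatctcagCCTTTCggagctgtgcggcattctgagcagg
Snhg8: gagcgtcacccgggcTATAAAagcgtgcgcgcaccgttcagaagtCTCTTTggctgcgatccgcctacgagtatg
Snhg12: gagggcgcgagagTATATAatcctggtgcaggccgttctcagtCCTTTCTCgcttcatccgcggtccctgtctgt
Snhg5: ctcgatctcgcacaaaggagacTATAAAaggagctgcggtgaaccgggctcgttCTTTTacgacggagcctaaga
2410006H16Rik: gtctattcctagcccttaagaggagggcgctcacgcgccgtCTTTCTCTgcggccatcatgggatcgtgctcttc

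These 5 genes held the pyrimidine run, in 5 of the 9 member promoters (55.6%), against 29.0% of all 32851 promoters and 51.2% of the 80 promoters of Rpl and Rps genes. The starts of Zfas1, Snhg1 and Dancr and the upstream start of Gas5 did not hold that run. TATAAA or TATATA between 45 and 16 bases before the start stood in 4 of the 9 (44.4%), those of Gas5, Snhg8, Snhg12 and Snhg5, against 2.96% of all promoters. On the other strand of that stretch they stood in 3 of 9 and in 1.73% of all, and TATATA reads the same on both strands. Within the 300 bases of each promoter, on either strand, CACGTG stood in 0 of 9 (7.15% of all) and TGACGTCA in 1, that of Gas5 (1.79% of all). A match is a run of letters and not a shown binding site, and an annotated start may lie some bases from the one used in hepatocytes.

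GENCODE M21 transcripts gave a second reading of the starts. Of the 79 annotated transcripts of the members, 12 (15.2%) began with a C followed by 4 pyrimidines, against 2.02% of all 141767 transcripts and 10.4% of those of ribosomal protein genes. They belonged to 6 of the 10 members (60.0%), Gas5, Zfas1, Snhg8, Snhg5, Snhg6 and Snhg12. Such a transcript was found in 4.54% of all genes and 41.2% of ribosomal protein genes. Transcripts of a gene can share a start, as in Gas5, so the shares of transcripts do not count separate starts. A gene with many transcripts also has more chances to hold one. No annotated transcript of Snhg1, 2410006H16Rik, Epb41l4aos or Dancr began so, and Snhg1 and Dancr lacked the run in both readings. In Zfas1 it was 1 of 5 transcripts, Zfas1-202, annotated as a retained intron. The first 30 bases of transcript Zfas1-202 and of Snhg6-203, the starts of the pair not shown above, follow with the pyrimidine run in capitals.
Zfas1: CCTTTCgttccggcggctcctagagcgttt
Snhg6: CTTTCTCggcagcgccgtagagcgcgagca

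The members' spans contained 33 annotated snoRNA loci on the same strand, 9 in Gas5, 8 in Snhg1, 4 in Snhg12, 3 each in Zfas1 and 2410006H16Rik, 2 in Snhg5 and 1 each in Snhg6, Snhg8, Epb41l4aos and Dancr. Of these, 22 (66.7%) held TGATGA (box C) in their first 20 bases and CTGA (box D) in their last 15, against 20.2% of the 1507 annotated snoRNAs, and 5 others held ACA in their last 10 bases. The hosts of box C/D snoRNAs are thus Gas5, Zfas1, 2410006H16Rik, Snhg1, Snhg5 and Snhg6, while Snhg8, Epb41l4aos and Dancr each hold 1 snoRNA with ACA near its end, and Snhg12 holds both kinds. A snoRNA of each kind shows what the hosts carry, with the boxes in capitals. They are Snord47 of Gas5 at chr1:161038082-161038158 (plus), Snord49a of 2410006H16Rik at chr11:62603450-62603521 (plus) and Snora24 of Snhg8 at chr3:123507937-123508066 (minus), in GRCm38. The snoRNAs themselves were not measured as such in the files.
Snord47: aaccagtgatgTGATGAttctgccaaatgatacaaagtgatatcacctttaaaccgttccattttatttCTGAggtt
Snord49a: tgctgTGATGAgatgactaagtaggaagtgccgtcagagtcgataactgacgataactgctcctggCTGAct
Snora24: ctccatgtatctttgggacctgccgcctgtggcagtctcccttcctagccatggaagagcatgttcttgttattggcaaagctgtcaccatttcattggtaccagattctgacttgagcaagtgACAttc

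The deposited values are FPKM, fragments scaled to transcript length and to the mapped total, with a row for each transcript model and the gene identifier as its only name. FPKM keep no depth, so the number of reads behind a value is unknown. The FPKM of a sample summed to between 60942.0 and 73600.1, lower in both NEAA samples than in both control samples. Gm26917 and Gm42418, a pair of genes of the GENCODE class lncRNA, held 52.9% and 50.4% of that sum in control and 49.4% and 46.1% in NEAA. What the reads of this pair stem from was not tested. The pair was left out of the lncRNA ranks and shares below and of an alternative scaling. Of 11 hepatocyte markers only Trf had a row, at 22.5 and 28.1 FPKM in control and 57.1 and 55.8 in NEAA, so the label of the cells could not be checked further. Markers of macrophages (2 of 7 with a row), endothelial cells (5 of 6), stellate cells or fibroblasts (3 of 6) and cholangiocytes (1 of 5) summed to at most 1.69 FPKM per list and sample. Their part in the results below was not tested.

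With NEAA, the snoRNA hosts were lower as a group. Summed over the 10 genes they measured 332 and 353 FPKM in the control samples and 149 and 167 FPKM in the NEAA samples, so that NEAA held 46.0% of the control mean. Their share of the FPKM of all lncRNA genes other than Gm26917 and Gm42418 was 6.97% ± 0.343 in control and 4.04% ± 0.159 in NEAA (SD, n = 2). For each gene the models were summed in each sample and log2(sum + 1) was compared by group with limma. All 10 genes had a negative log2 difference, as had 2590 of the 4700 genes tested and 221 of the 421 lncRNA genes tested. The members' median was -1.02, beside a median of -0.06 over all genes tested and of -0.04 over the lncRNA genes tested. In 9 of 10 both NEAA samples lay below both control samples, which was so for 34.4% of all genes tested and 37.3% of lncRNA genes. At a limma adjusted p under 0.05 over all genes, 7 of the 10 were called lower, beside 4.11% called lower, 6.0% called higher and 10.1% called in either direction over all genes. Of the lncRNA genes tested, 10.2% were called lower and 11.6% higher, and 26.2% of all genes lay higher without overlap. Since the members were picked with this contrast in view, nothing is read from these shares.

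**Figure D1:**
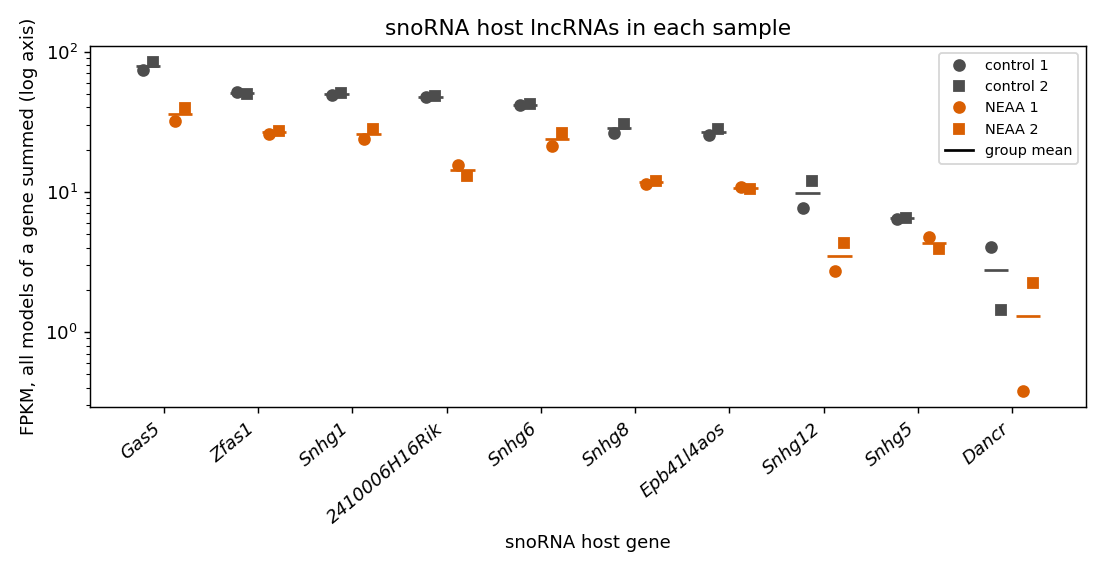
FPKM summed over all models of each snoRNA host gene (y, log axis) in the 2 control samples (grey) and the 2 NEAA samples (orange), with lines at the group means, genes ordered by control mean. The groups lie apart for 9 genes and overlap for Dancr.

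Among the hosts of box C/D snoRNAs, Gas5 was the most abundant member. Gas5 (ENSMUSG00000053332, GRCm38 chromosome 1, 161034422 to 161038539, plus strand), named for its rise in growth-arrested cells, measured 73.7 and 83.9 FPKM in control and 32.0 and 39.7 FPKM in NEAA. Both NEAA samples were below both control samples, and the means were 78.8 ± 7.20 and 35.9 ± 5.50 FPKM (SD, n = 2), a log2 difference of -1.12 (SE 0.17). It ranked 3 among lncRNA genes by control mean, with Gm26917 and Gm42418 left out, and 5 by NEAA mean. Its 25 rows and the 20 retained-intron transcripts among its 25 annotated ones show how finely this gene was divided in the files.

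Zfas1 (ENSMUSG00000074578, chromosome 2, 167062934 to 167065862, plus strand) lies head to head with Znfx1 and hosts snoRNAs of the Snord12 family. It measured 51.1 and 49.7 FPKM in control and 26.0 and 27.0 FPKM in NEAA, groups that did not overlap. The log2 difference was -0.90 (SE 0.13), and NEAA held 52.6% of the control mean. Its span overlaps Znfx1 on the opposite strand by 82 bases. Znfx1 itself summed to between 0.117 and 0.808 FPKM in the 4 samples, with overlapping groups.

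Snhg1 (ENSMUSG00000108414, chromosome 19, 8723475 to 8726443, plus strand), the host with the second most snoRNA loci here, measured 48.6 and 50.7 FPKM in control and 23.9 and 28.0 FPKM in NEAA. The log2 difference was -0.92 (SE 0.15), close to that of Zfas1. The levels of Zfas1 and Snhg1 overlapped in both groups, so neither can be placed above the other.

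2410006H16Rik (ENSMUSG00000086841, chromosome 11, 62602877 to 62604807, plus strand), the host of Snord49a, Snord49b and Snord65, had the largest log2 difference of the members. It measured 47.5 and 47.9 FPKM in control and 15.6 and 13.1 FPKM in NEAA, so that the control samples differed by less than the NEAA samples and the groups lay far apart. The means were 47.7 ± 0.321 and 14.3 ± 1.80 FPKM (SD, n = 2), a log2 difference of -1.67 (SE 0.15). It had a single model, so its value does not depend on how fragments were divided among models. By control mean it ranked 9 among lncRNA genes and by NEAA mean 27.

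Snhg6 (ENSMUSG00000098234, chromosome 1, 9941959 to 9944118, minus strand), the host of Snord87, measured 41.8 and 42.1 FPKM in control and 21.1 and 26.2 FPKM in NEAA. The NEAA samples differed more from each other than the control samples did, and the log2 difference was -0.81 (SE 0.16). Snhg5 (ENSMUSG00000097195, chromosome 9, 88521050 to 88522929, minus strand), the host of Snord50a and Snord50b, was far less abundant. It measured 6.42 and 6.53 FPKM in control and 4.74 and 3.91 FPKM in NEAA, with a log2 difference of -0.49 (SE 0.14), the smallest of the members. Its groups did not overlap, but it was not among the genes called.

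Of the hosts of single box H/ACA snoRNAs, Snhg8 and Epb41l4aos had similar levels and differences. Snhg8 (ENSMUSG00000104960, chromosome 3, 123507552 to 123508404, minus strand) measured 26.2 and 30.5 FPKM in control and 11.3 and 11.997 FPKM in NEAA, a log2 difference of -1.21 (SE 0.14). Epb41l4aos (ENSMUSG00000087590, chromosome 18, 33794892 to 33795986, plus strand), named as the opposite-strand transcript of Epb41l4a, measured 25.4 and 27.9 FPKM in control and 10.7 and 10.5 FPKM in NEAA, a log2 difference of -1.25 (SE 0.13). Both pairs of groups lay apart, and in control the values of Snhg8 and Epb41l4aos overlapped.

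Dancr (ENSMUSG00000106943, chromosome 5, 74093060 to 74095406, plus strand), the host of Snora26 and known in human progenitor cells for holding back differentiation, was the least abundant. It measured 4.06 and 1.44 FPKM in control and 0.381 and 2.23 FPKM in NEAA. The groups overlapped, and the log2 difference of -0.73 had an SE of 0.55. Its most abundant model was listed at 0 in 1 sample of each group.

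Snhg12 (ENSMUSG00000086290, chromosome 4, 132308623 to 132311024, plus strand), which carries Snora16a, Snora44, Snora61 and Snord99, measured 7.60 and 12.025 FPKM in control and 2.73 and 4.28 FPKM in NEAA. The groups did not overlap, but the samples within each group differed widely. The log2 difference of -1.25 (SE 0.28) was as large as that of Epb41l4aos, and Snhg12 was not among the genes called. In control it stood above Snhg5 without overlap, while in NEAA the values of Snhg5 and Snhg12 overlapped.

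From highest to lowest control mean the order was Gas5, Zfas1, Snhg1, 2410006H16Rik, Snhg6, Snhg8, Epb41l4aos, Snhg12, Snhg5 and Dancr. Of the neighbours in that order, only Zfas1 and Snhg1, and Snhg8 and Epb41l4aos, had overlapping control values. In NEAA, Snhg6 came before 2410006H16Rik and Snhg5 before Snhg12, with overlaps between Zfas1 and Snhg1, Snhg1 and Snhg6, and Snhg5 and Snhg12. With 2 samples a group, values that do not overlap are a weak ordering.

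Of the 102 rows, 39 averaged 1 FPKM or more across the samples and were fitted as single models, 63 did not reach that level and 11 were at 0 in every sample. For 34 of the 39 the log2 difference was negative and for 5 positive. Their median was -0.52, beside -0.09 over all models tested. Both NEAA samples lay below both control samples in 26 models, above them in 2, and the groups overlapped in 11. Over all 6064 models tested, 36.0% lay lower and 22.8% higher without overlap, and among lncRNA models 40.6% lay lower. In 3 models the limma adjusted p over all models was under 0.05, those of 2410006H16Rik and Epb41l4aos and 1 of Snhg8, all lower in NEAA, beside 0.956% of all models called lower, 1.95% called higher and 2.9% called in all. Of lncRNA models 3.37% were called lower and 4.42% higher. As the members were picked with this contrast in view, nothing is read from the calls of their models. The files name no transcript, so which annotated transcript a model stands for is not known.

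**Figure D2:**
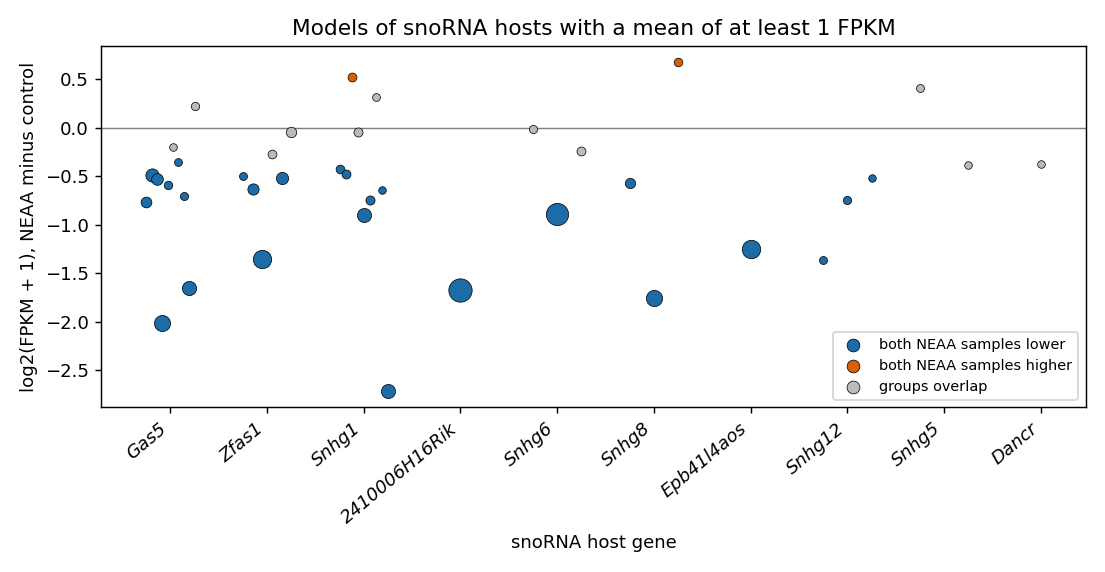
Difference in log2(FPKM + 1), NEAA minus control (y), of the 39 fitted models, by gene, with point area growing with the mean FPKM. Blue points have both NEAA samples lower (26), orange points both higher (2) and grey points overlap (11).

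Models of the same gene did not share a single difference. In Gas5 the log2 differences ran from -2.01 to 0.22 over 10 models. Its most abundant model measured 21.1 and 22.9 FPKM in control and 3.49 and 6.26 FPKM in NEAA, and the next measured 13.3 and 17.7 FPKM against 2.88 and 6.0. The 3 models that follow were closer to each other between groups, such as the one at 9.19 and 10.7 FPKM in control and 7.08 and 6.55 in NEAA. The only Gas5 model with a positive difference measured 2.08 and 1.27 FPKM in control and 2.41 and 1.79 in NEAA, with overlapping groups.

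The model with the highest mean of a gene differed more than the rest of the gene in Gas5, Zfas1, Snhg1, Snhg6 and Snhg8. In Epb41l4aos the only other model was at 0.178 FPKM or below in every sample, so the main model is nearly the whole gene. There the order depends on the added 1 FPKM. The log2 differences were -1.25 for the main model and -0.17 for the other. As a percentage of the control mean, however, NEAA held 39.9% in the main model and 24.9% in the other. In Gas5 the main model took 28.6% and 27.3% of the gene's sum in control and 10.9% and 15.7% in NEAA, while the other 24 models together measured 56.8 ± 5.93 FPKM in control and 31.0 ± 3.55 in NEAA (SD, n = 2). In Zfas1 it took 50.4% and 55.4% in control and 33.4% and 41.1% in NEAA. There the model measured 25.8 and 27.5 FPKM against 8.69 and 11.1, a log2 difference of -1.35, and the other models of Zfas1 together 25.3 and 22.1 FPKM against 17.4 and 15.9, a log2 difference of -0.49. The log2 difference of the main model minus that of the rest was -2.18 in Snhg1 and -1.63 in Snhg8, the widest of these genes. The main model of Snhg8 measured 19.5 and 24.1 FPKM in control and 6.06 and 5.37 in NEAA, while its other models summed to 6.70 and 6.40 FPKM in control and 5.28 and 6.62 in NEAA, with overlapping groups. One of those others was the reverse of the main model, at 1.75 and 1.05 FPKM in control and 2.43 and 3.18 in NEAA. In Snhg6 the main model took 83.6% to 90.1% of the sum in control and 77.6% to 85.2% in NEAA, ranges that overlap. In Snhg12 the main model had a log2 difference of -0.74 and the rest of the gene -1.26. In Snhg5 the main model had a positive difference of 0.41 with overlapping groups, and the rest -0.84, and without control 1 that model was at -0.08. In Dancr the main model and the rest were at -0.37 and -0.47. The main model was chosen by its mean over all 4 samples, which favours models that are high in control. A larger difference of the main model is therefore partly built in. By NEAA mean another model led in Gas5 (6.82 against 4.87 FPKM) and in Snhg1 (6.71 against 2.89 FPKM). In Zfas1, Snhg6, Snhg8 and Epb41l4aos the main model also led by NEAA mean.

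**Figure D3:**
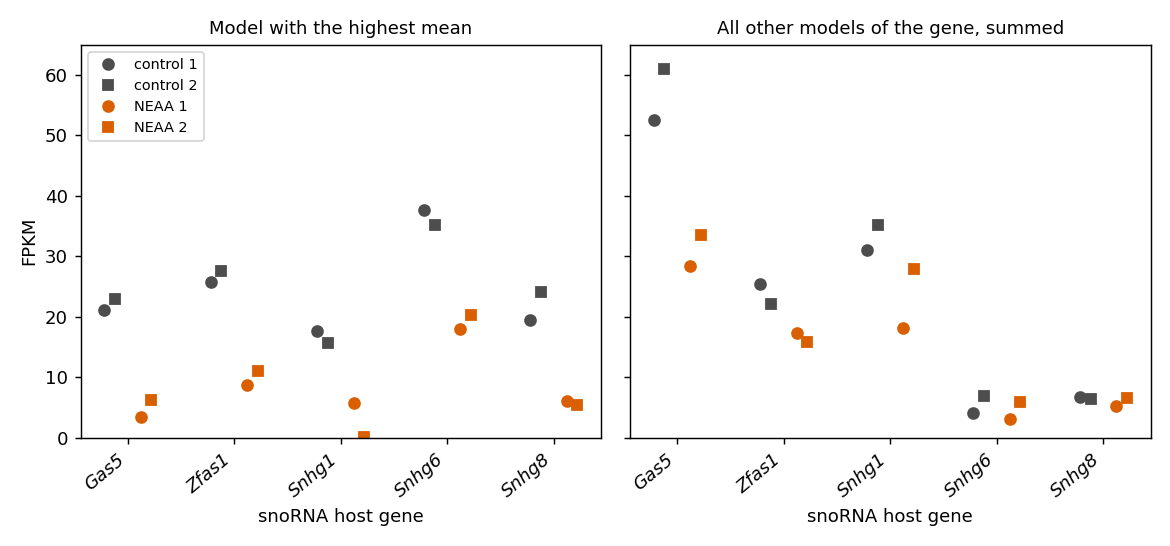
FPKM (y) of the model with the highest mean over the 4 samples (left) and of all other models of the same gene summed (right), in control (grey) and NEAA (orange) samples, for 5 snoRNA host genes. The main model of Snhg8 goes from above 19 to about 6 FPKM or less while the sum of its other models overlaps between groups.

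Single models also differed between samples of a group. Snhg1 shows this. Its model of highest mean measured 17.6 and 15.6 FPKM in control, 5.70 in NEAA 1 and 0.0740 in NEAA 2. Another Snhg1 model was the reverse between the NEAA samples, at 0.260 in NEAA 1 and 5.97 in NEAA 2, and a further one measured 4.41 and 9.02. The sum over the gene, 23.9 and 28.0 FPKM, was steadier than any of these 3 models. In Snhg5 a model measured 3.11 and 0 FPKM in control and 1.40 and 0 in NEAA, and another 0.456 and 1.89 against 1.39 and 2.11, so that its single models say little and its sum is the value to use. Snhg5 had 28 rows in the files against 6 annotated transcripts and Zfas1 6 against 5, and the other 8 members had as many rows as transcripts.

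The spans of 4 members overlap a gene on the opposite strand, and the strand setting of the authors' counting is not given in the sources used here. Beside Zfas1 and Znfx1, Gas5 overlaps Zbtb37 by 428 bases, Snhg6 overlaps Mcmdc2 by 127 and Dancr overlaps Gm43416 by 92. Zbtb37, Mcmdc2 and Gm43416 were not analysed here, as no row carried their identifiers. Without strand, fragments of these overlaps cannot be assigned to either gene. The 6 other members, 2410006H16Rik among them, overlap no annotated gene on the other strand.

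Other lncRNA genes that contain a snoRNA were compared next, as the genes most like the members. Of 56 such genes 18 were tested, 12 with a negative and 6 with a positive log2 difference, and their median was -0.38. In 12 of the 18 both NEAA samples lay below both control samples and in 2 above them, beside 157 and 141 of the 421 lncRNA genes tested. By limma 1 rose and 1 fell, beside 11.6% and 10.2% of lncRNA genes, and with the replicate block 0 and 1. At an unadjusted limma p under 0.05, 7 were lower and 2 higher, beside 96 and 91 of the 421. Over all lncRNA genes tested 221 of 421 were negative. The class lncRNA is that of GENCODE and takes in Cct6a, named for a chaperonin subunit. Cct6a averaged 36.5 FPKM in control and 19.6 in NEAA and did not pass (limma adjusted p = 0.0811). AC121821.1 (chromosome 18), which contains 2 snoRNA loci, fell from 29.2 ± 2.84 to 11.2 ± 0.638 FPKM (SD, n = 2), a log2 difference of -1.30 (SE 0.14, limma adjusted p = 0.0163). 9430037G07Rik rose from 0.523 ± 0.160 to 1.85 ± 0.395 FPKM (limma adjusted p = 0.0454). AI506816, at 68.9 and 65.3 FPKM in control and 42.7 and 43.6 in NEAA, did not pass (limma adjusted p = 0.0509). Neither did 1810032O08Rik, which RefSeq lists as Snhg16 and which hosts the Snord1 family, at 6.61 and 7.29 FPKM in control and 3.63 and 4.25 in NEAA (limma adjusted p = 0.0526). Snhg3, Snhg15 and Snhg17, 3 further hosts of the same naming series, averaged 24.6, 15.02 and 12.5 FPKM in control and 16.4, 10.1 and 8.65 FPKM in NEAA, and none of them passed. These last 3 were chosen after their values were seen.

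**Figure D4:**
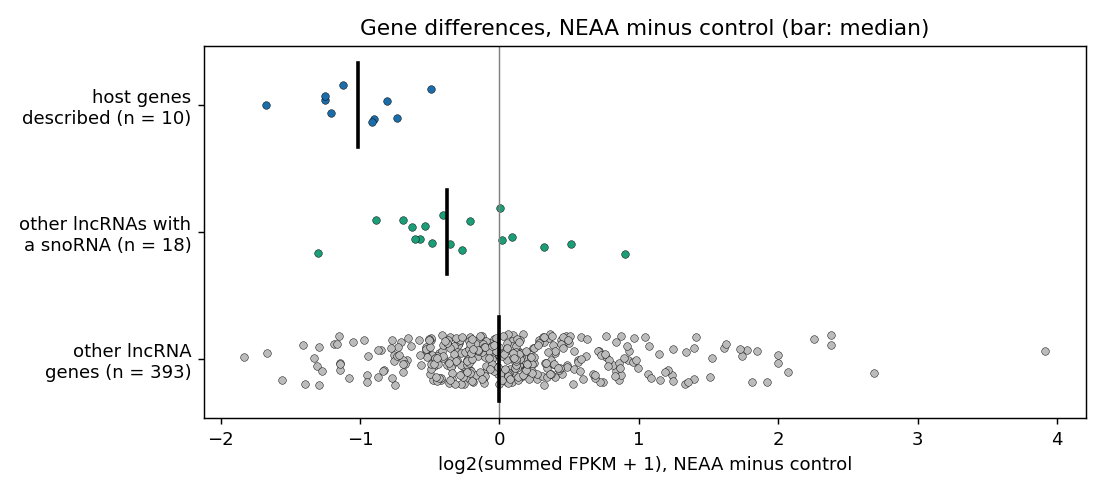
Difference in log2(summed FPKM + 1), NEAA minus control (x), of the 10 host genes described, of 18 other lncRNA genes that contain a snoRNA and of 393 lncRNA genes that do not, with a bar at each median. The medians are -1.02, -0.38 and -0.01, and the members were picked with these differences known. LncRNA is the GENCODE class, which takes in Cct6a among the 18.

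SnoRNAs also lie in introns of protein-coding genes, of which 259 contain one by annotation and 124 were tested. In them 5 rose and 9 fell by limma, beside 6.0% higher and 4.11% lower over all genes, with a median log2 difference of -0.28. The balance depended on the scaling, with 7 that rose and 4 that fell after scaling each sample to a sum of 1000000. With the replicate number as a block 0 rose and 1 fell, and with all genes above 0 tested 1 rose and 3 fell. Rows of protein-coding genes in these files may be retained-intron RNAs, so here and below they are not read as mRNA levels. Mia2, which helps to export large cargo from the endoplasmic reticulum, fell from 34.7 ± 0.656 to 13.5 ± 1.53 FPKM (SD, n = 2, limma adjusted p = 0.0163), and Wdr43, a factor of ribosome assembly, from 15.5 ± 1.18 to 6.78 ± 0.216 (limma adjusted p = 0.0198). Eif4a1, the RNA helicase of translation initiation, rose from 14.1 ± 0.368 to 32.0 ± 2.55 FPKM (limma adjusted p = 0.0190). Dkc1, the pseudouridine synthase of box H/ACA particles and itself a host, fell from 7.63 ± 0.219 to 2.87 ± 0.555 FPKM (limma adjusted p = 0.0241).

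Next came the genes for proteins that bind the snoRNAs. Of 20 genes for core snoRNA particle proteins and their assembly factors, 11 were tested. Of these 10 had a negative log2 difference, beside 2590 of 4700 over all genes, and the median was -0.62. Limma called 4.11% of all genes lower. In this list 2 fell, against 1 after scaling to 1000000 and 0 with the replicate block. They were Dkc1 and Fbl, the methyltransferase of box C/D particles, from 4.05 ± 0.178 to 1.78 ± 0.479 FPKM (SD, n = 2, limma adjusted p = 0.0464). Nop58, a core protein of box C/D particles, measured 16.8 and 16.6 FPKM in control and 9.22 and 5.35 in NEAA and did not pass (limma adjusted p = 0.0639). Snu13, which binds the kink-turn of box C/D snoRNAs, measured 1.66 and 1.23 against 0.760 and 0.449 (limma adjusted p = 0.101).

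Genes whose mRNAs carry a 5'TOP were read as lists. Over all 4700 genes tested 2590 had a negative log2 difference, and 766 were lower at an unadjusted limma p under 0.05. Of these 4700, limma called 4.11% lower and 6.0% higher after adjustment. Of 64 tested ribosomal protein genes 52 had a negative log2 difference, with a median of -0.37. By limma 5 fell, while 20 were lower at an unadjusted p under 0.05. Limma called 0 of them after scaling to a sum of 1000000, with the replicate block, or with all genes above 0 tested. Among them Rpl18 fell from 44.7 ± 0.912 to 24.6 ± 0.699 FPKM (SD, n = 2, limma adjusted p = 0.0313) and Rplp2 from 19.0 ± 0.391 to 10.1 ± 0.575 (limma adjusted p = 0.0316). Rpl15, from 8.91 to 4.14 FPKM, and Rps12, from 11.2 to 5.42, fell as well (limma adjusted p = 0.0387 and 0.0416), and these genes have near-identical copies that could share reads. Of 13 other tested 5'TOP genes 11 had a negative difference, with a median of -0.45. In this list 1 fell and 1 rose by limma, and neither count held with the replicate block or with all genes above 0 tested, where both were 0. After scaling to 1000000, 0 fell and 2 rose. Pabpc1, the poly(A)-binding protein, fell from 43.4 ± 1.99 to 23.2 ± 0.680 FPKM (limma adjusted p = 0.0297), and Vim, an intermediate filament protein, rose from 6.29 ± 0.690 to 12.2 ± 1.47 (limma adjusted p = 0.0431). Rack1, a ribosome-bound scaffold protein, measured 14.3 and 12.7 FPKM in control and 8.64 and 8.66 in NEAA, and the histone chaperone Nap1l1 6.72 and 6.12 against 3.95 and 4.14. Neither of them passed.

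Genes that act on such RNAs were read in the same way, beside the 4.11% of all genes called lower and 6.0% called higher. Of 8 tested genes of nonsense-mediated decay, 1 fell, Rbm8a of the exon junction complex, from 2.60 ± 0.228 to 0.943 ± 0.175 FPKM (SD, n = 2, limma adjusted p = 0.0334), and the median was -0.39. Limma called 0 of the 8 after scaling to 1000000 or with the replicate block. Smg5, which helps to degrade the targets, measured 10.7 and 7.84 FPKM in control and 6.43 and 6.46 in NEAA and did not pass (limma adjusted p = 0.181). Of 16 tested genes of mTORC1 and LARP1, limma called 0. At an unadjusted p under 0.05, 3 were lower and 0 higher, beside 766 lower and 679 higher of 4700 over all genes. The median of -0.06 was that of all genes. Larp1 measured 1.30 and 1.80 FPKM in control and 0.966 and 0.661 in NEAA, and the related Larp4 6.11 and 11.4 against 4.201 and 2.80. Rheb, the activator of mTORC1, measured 5.34 and 5.51 against 4.17 and 4.07, and Tsc2, its inhibitor, 3.83 and 3.85 against 2.78 and 3.0. None of these 4 passed. RNA levels of these genes do not measure the activity of the pathway. All calls above rest on the 2 samples of each group together, and without either control sample limma called 0 genes of 4700, with 1063 and 1058 at an unadjusted p under 0.05.

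By the distance between log2 values centred on their mean over the 4 samples, the lncRNAs outside the list whose pattern was nearest to Gas5 were Gm27177, Map2k3os, Pvt1, Neat1 and Gm42890, of 411 compared. Gm27177 (chromosome 14) measured 7.51 and 8.07 FPKM in control and 2.67 and 3.07 in NEAA, at a distance of 0.145 from Gas5. Among the members, Snhg8 was nearest to Gas5 at 0.188 and Dancr farthest at 1.16. Pvt1 measured 10.8 and 13.0 FPKM against 3.57 and 5.16, and Neat1, the lncRNA of paraspeckles, 63.1 and 64.99 against 28.1 and 28.8. To the average of the members the nearest were Gm27177, Neat1, Map2k3os, Gm42890 and 6330562C20Rik. With 4 samples, many lncRNAs that are lower in NEAA share such a pattern.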

How the data were processed

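RNA of 4 samples (2 control, 2 NEAA) was analysed. Libraries for lncRNA sequencing were made from total RNA with the NEBNext Ultra kit, per the labels' protocols, and the submitters' processing notes name the builds GRCm38 and mm10. The authors deposited FPKM per transcript model, per the file headers and names. The sources used here do not name the aligner, estimator or strand setting.

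Rows were joined by row order, after a check that the identifiers were the same in all 4 files, named with GENCODE M21 (GRCm38) and summed per gene. Models or genes with a mean of at least 1 FPKM were fitted as log2(FPKM + 1) with limma 3.58.1 in R 4.3.3 (mean trend, 2-sided), adjusted by Benjamini-Hochberg over 6064 models or 4700 genes, and called at an adjusted p under 0.05. Fold differences on this scale understate the change of low genes. An exact permutation test of 2 against 2 cannot go below p = 0.333. Members, lists and named genes were chosen with earlier results of these data known. Named were all members, their models of at least 1 FPKM, up to 4 genes of smallest p per list and the 5 lncRNAs nearest to Gas5 or to the members' average. Snhg3, Snhg15 and Snhg17 were added after their values were seen. The fit was also run on simulated gene values with independent normal noise, which checks the code and not the calls made here. Promoters came from RefSeq (GRCm38.p6), transcript and snoRNA sequences from GENCODE. Figures were drawn with matplotlib 3.10.9.
Alternatives were other pseudocounts, filters and scalings, a replicate block, no mean trend and leaving out each sample. FPKM hold no depth, so no counting interval can be given.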

Additional observations from a re-analysis of the deposited data

How the results depend on the processing

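All 10 members kept a negative log2 difference under every alternative in which they were tested, but how many were called did not hold. The kept sign says little. Filters, the replicate block and the mean trend leave the difference of a gene unchanged. For the 9 members whose groups did not overlap, neither another pseudocount nor leaving out a sample can turn the sign. The genes called, 475 as reported (59.4% of them higher), were 244 with every gene above 0 in any sample tested (4 members called), 153 with a filter of 5 FPKM (7 of 9 members) and 185 with the replicate block (4 members, Snhg12 among them). Same-numbered samples did not deviate together (r = 0.00167 over genes), so the numbers are not shown to pair the samples. Leaving out one sample left 0 to 91 genes: 0 without control 1 or control 2, 7 without NEAA 1 and 91 without NEAA 2, with 0, 0, 0 and 1 member called. The models called, 176 as reported, were 0 with all models above 0 tested (4000 at an unadjusted p under 0.05), 100 with a filter of 5 FPKM, 110 after scaling to a sum of 1000000, 0 with the replicate block (1323 unadjusted) and 0 to 0 with one sample left out (1076 to 1248 unadjusted). Scaling to 1000000 moved the median of all genes from -0.06 to 0.13, the share of gene calls that were higher to 81.9%, and left 3 members called; scaling without Gm26917 and Gm42418 gave 70.1% and 6 members. The members' median of -1.02 was -1.20 with a pseudocount of 0.1 FPKM, -0.82 with 5 FPKM, -1.12 with the 5 FPKM filter, -0.92 scaled without Gm26917 and Gm42418, -0.86 after quantile normalization and -1.24 to -0.92 with one sample left out. Of 481 values of single member models, 19 changed sign. The causes were not tested. Depth is unknown, and 2 samples a group limit the precision.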
